A study of Mus musculus with 4 samples.

Results

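The 36 genes described here serve glucose uptake, glycolysis, the fate of pyruvate and lactate, and the transcriptional response to low oxygen. They were chosen by name as the glycolytic enzymes, glucose and monocarboxylate transporters, regulators of hypoxia inducible factor (HIF) and known HIF target genes. All 36 were found by symbol among the 35275 genes counted, and all 36 were among the 12490 genes measured, meaning at least 2 CPM (the count scaled to a fixed library size) in at least 1 library. Of the 36, 34 reached 2 CPM in every library and 31 reached 10 CPM in at least 1. Hk2 passed only through the library labelled KO in group 2 and Aldoc only through the library labelled KO in group 3.

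RNA was sequenced from untreated thymocytes of C57BL/6 mice aged 6 to 8 weeks. The groups compared were Uba3ΔT cells, which the genotype label also gives as Uba3-/- and which are called labelled KO here, and Uba3F/F cells with floxed alleles, called WT. Each genotype was sorted into group 3 (TCRβhi CD69hi) and the preceding step of positive selection, group 2 (TCRβint CD69hi), with 1 library for each of the 4 combinations. The driver of the Cre recombinase and the number of mice behind a library are not given in the sources used here. The cell type field of the labels puts both libraries labelled KO in group 3 and both WT libraries in group 2, against the titles and the series design, and the titles were followed.

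Glycolysis turns glucose into pyruvate, and cells that divide or lack oxygen send much of that pyruvate to lactate. HIF raises transcription of most steps of this route when oxygen is low. With oxygen present, the EGLN prolyl hydroxylases mark the HIF alpha subunit, VHL binds the marked protein, and the CUL2 ubiquitin ligase sends it for destruction. Cullin ligases are switched on by attachment of NEDD8, and UBA3 forms the catalytic part of the E1 enzyme for NEDD8. HIF1A is controlled largely at the protein level, which transcript counts do not measure.

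The libraries held between 8043077 and 10299863 counts. The targeted gene went against its label, since Uba3 had 647 and 856 counts in the libraries labelled KO (group 2, then group 3) against 453 and 356 in the WT libraries, ratios of 1.70 (95% interval 1.5 to 1.92) and 2.06 (1.82 to 2.34). Counts summed over all exons of Uba3 do not reveal the loss of a single exon, so these ratios leave the deletion itself unmeasured. Genes with at least 1 count numbered 23925 and 20521 in the libraries labelled KO of groups 2 and 3, against 20440 and 23325 in WT, so that the genotype with more detected genes differed between sorted groups. All 10 thymocyte markers were present in every library, with summed levels of 11630 to 11840 CPM in the libraries labelled KO and 11780 to 12410 CPM in WT. Single markers differed more than the sums. Of the 10, 5 were higher in the library labelled KO in group 2 and 4 in that of group 3. Rag1 was lower in both, at ratios of 0.706 (0.668 to 0.747) and 0.601 (0.561 to 0.643). Summed myeloid markers stood at 80.4 and 92.3 CPM in the libraries labelled KO of groups 2 and 3, against 51.7 and 55.3 CPM in WT. Erythroid markers summed to 538 CPM in the library labelled KO in group 2, against 361 CPM in WT group 2 (6 of 6 higher), and to 395 CPM in the library labelled KO in group 3, against 402 CPM in WT group 3 (3 of 6 higher). Neutrophil markers summed to 33.6 CPM in the library labelled KO in group 3, against 0.859 CPM in WT group 3, and to 0.453 CPM in the library labelled KO in group 2, against 1.33 CPM in WT group 2. In bulk RNA, fewer cells of a type and less RNA per cell cannot be told apart. Values below are CPM with TMM factors, which even out library composition, unless RPKM (CPM divided by gene length in kilobases) is named. Pairs of values run group 2, then group 3, and ratios have exact 95% intervals that cover counting error only.

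The promoters of the 3 members that rose in the libraries labelled KO are shown with that of Bnip3, the member with the most core HIF motifs in a window near its annotated start. HIF binds a core written ACGTG or GCGTG, searched on both strands; the palindrome CACGTG holds ACGTG on each strand and so counts as a pair. Each window is the 250 bases before the RefSeq start (GRCm38.p6), written 5′ to 3′ along the gene, with cores on either strand in capitals.
Egln3, chr12:54203875-54204124, minus strand: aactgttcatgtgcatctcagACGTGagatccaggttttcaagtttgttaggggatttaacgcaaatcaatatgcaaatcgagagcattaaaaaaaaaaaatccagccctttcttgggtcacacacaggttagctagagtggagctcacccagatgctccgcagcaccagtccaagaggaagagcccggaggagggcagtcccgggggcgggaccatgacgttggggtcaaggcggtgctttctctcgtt
Aldoa, chr7:126800448-126800697, minus strand: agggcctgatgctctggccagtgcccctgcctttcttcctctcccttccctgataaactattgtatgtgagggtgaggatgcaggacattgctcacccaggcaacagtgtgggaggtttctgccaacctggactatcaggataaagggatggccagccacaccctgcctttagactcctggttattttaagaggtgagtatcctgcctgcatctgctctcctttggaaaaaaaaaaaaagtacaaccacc
Vegfa, chr17:46032378-46032627, minus strand: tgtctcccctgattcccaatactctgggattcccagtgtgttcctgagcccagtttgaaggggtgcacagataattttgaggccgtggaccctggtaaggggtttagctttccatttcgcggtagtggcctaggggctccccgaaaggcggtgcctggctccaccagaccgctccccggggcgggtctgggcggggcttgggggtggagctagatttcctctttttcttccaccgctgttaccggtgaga
Bnip3, chr7:138909507-138909756, minus strand: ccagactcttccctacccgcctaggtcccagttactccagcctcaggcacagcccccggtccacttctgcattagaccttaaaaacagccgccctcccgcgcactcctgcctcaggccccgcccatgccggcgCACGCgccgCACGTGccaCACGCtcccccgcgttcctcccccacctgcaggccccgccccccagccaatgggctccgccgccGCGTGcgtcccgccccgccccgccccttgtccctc

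Egln3 held 1 core, starting 229 bases before its start, and neither the Aldoa nor the Vegfa window shown held any. These are the windows nearest the annotated gene start; RefSeq gives Aldoa 3 windows, of which 2 held a core, and Vegfa 2, of which 1 did. The Bnip3 window held 5, between 117 and 35 bases before its start. RefSeq windows were matched for 33 of the 36 members, not for Slc2a3, Bnip3l and Bhlhe40. Of the 33, 25 (75.8%) held at least 1 core, in the window nearest the annotated start, beside 57.4% of 9410 measured genes in theirs and 38.6% of all 32851 windows. At least 2 cores were present in 16 members (48.5%), 28.4% of measured genes and 16.7% of all windows. The median GC content of the windows followed the same order, at 62.0% in members, 59.6% in measured genes and 52.4% overall. A match describes these letters only, and the Aldoa window ended 304 bases from the gene start that GENCODE M21 annotates. Some windows counted with a core also ended far from that start. The distance was 6492 bases for Hif1a, 5857 for Ankrd37, 4329 for Ldha, 694 for Gapdh and 587 for Slc16a3.

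The first question was which of these genes followed the genotype label across both sorted groups. Egln3, the most HIF-responsive of the prolyl hydroxylases, Vegfa, the growth factor that directs vessel growth, and Aldoa, the aldolase of glycolysis in most tissues, rose in the libraries labelled KO. These 3 of 36 (8.33%) passed edgeR's quasi-likelihood test with sorted group as covariate, beside 2.95% of all measured genes. None of the 36 fell by that test, beside 1.87% of all measured genes; DESeq2 also called none lower. At an unadjusted p under 0.05, 5 members were higher (13.9%, beside 7.08% of measured genes) and 2 lower, Slc16a1 and Pdk1 (5.56%, beside 6.12%). Both libraries labelled KO lay above both WT libraries for 10 members (27.8%, beside 18.8% of measured genes) and below them for 4 (11.1%, beside 19.7%). The median fitted log2 fold of the members was 0.11, and that of all measured genes 0.00. With 1 library per combination, the additive fit left 1 residual degree of freedom, and each gene's spread was shrunk fully to a trend over all measured genes. These p-values therefore rest on that pooled spread and not on replicates. Which of the effects belong to 1 sorted group only cannot be tested.

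**Figure D1:**
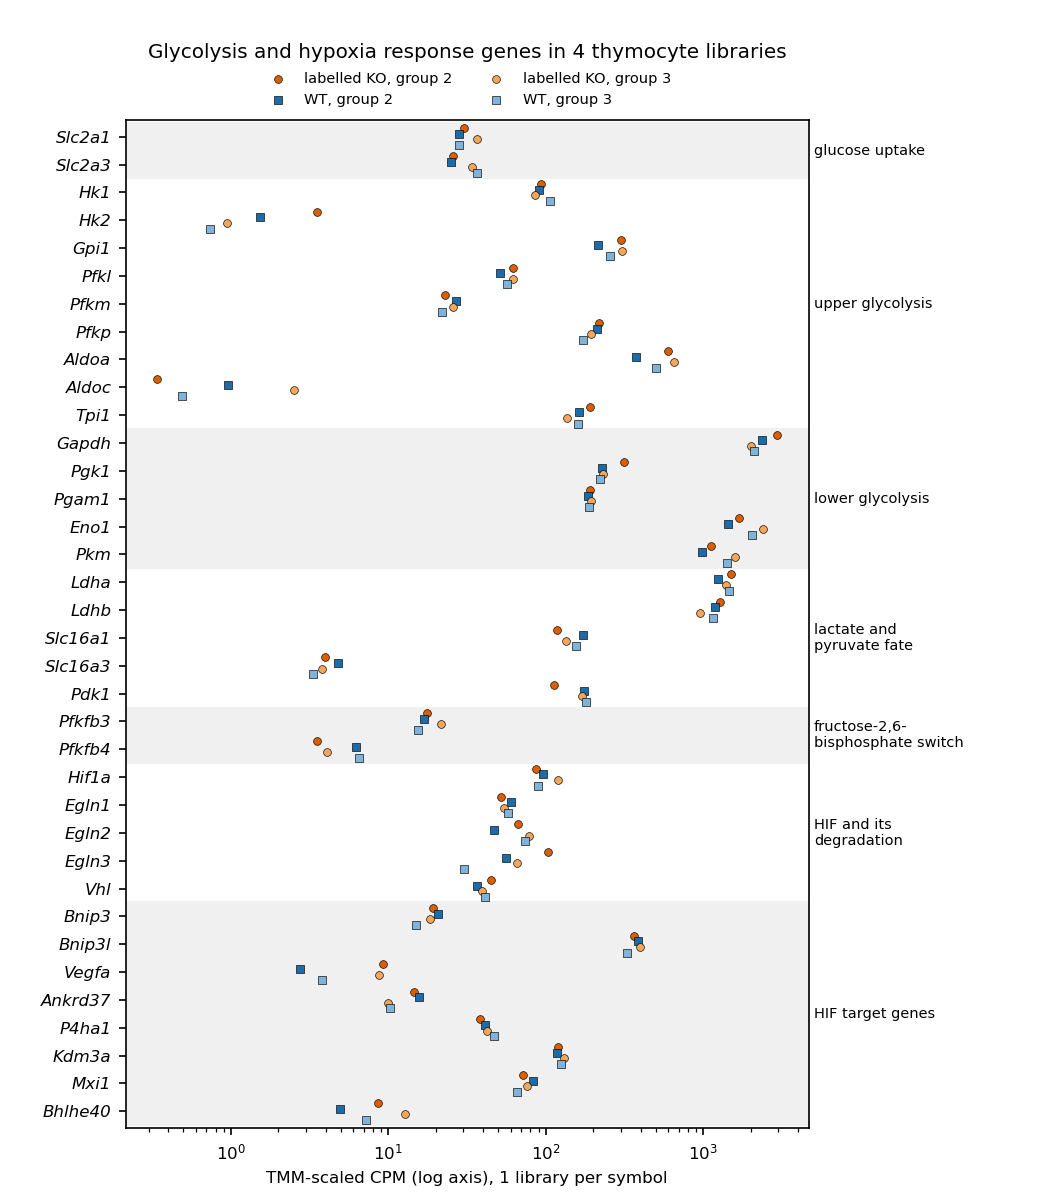
Level of each of the 36 genes in each library, as TMM-scaled CPM on a log axis, grouped by role; each symbol is 1 library and has no error bar. Egln3 lies at 104 and 65.5 CPM in the libraries labelled KO of groups 2 and 3 and at 55.5 and 30.2 CPM in WT, and Hk2 and Aldoc lie lowest, at 0.340 to 3.51 CPM.

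Among the 5 genes of HIF and its degradation, the clearest difference was in Egln3 (ENSMUSG00000035105, mm10 chromosome 12, 54178981 to 54203860). Egln3 had 104 and 65.5 CPM in the libraries labelled KO of groups 2 and 3, against 55.5 and 30.2 CPM in the WT libraries. Both libraries labelled KO were above both WT libraries, and within each genotype group 2 was the higher. The ratio was 1.87 (1.69 to 2.08) in group 2 and 2.17 (1.87 to 2.53) in group 3, and the fitted log2 fold was 1.01 (SE 0.17, edgeR adjusted p = 1.37e-06). Fits without 1 library, here and below, carried no second factor, so the other factor can enter their folds. The fitted log2 fold of Egln3 was 0.61 without the library labelled KO in group 2 or without WT group 3. Neither of these fits made the call. The fold was 1.27 without the library labelled KO in group 3 and 1.49 without WT group 2. With all 4 libraries but no sorted group term, it was 0.98 and the call was also lost (edgeR adjusted p = 0.323). The myeloid marker sums given above differed in the same direction, with 6 of 7 markers higher in the library labelled KO in group 2 and 7 of 7 in group 3; their part in the Egln3 and Vegfa results was not tested.

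The other genes of this group did not pass for genotype. Hif1a, the oxygen-labile alpha subunit, had 86.2 and 119.6 CPM in the libraries labelled KO, against 96.6 and 89.7 CPM in WT. The library labelled KO in group 3 was the highest of the 4, and the genotype groups overlapped. Hif1a ratios therefore lay on opposite sides of 1, at 0.892 (0.811 to 0.981) in group 2 and 1.33 (1.22 to 1.47) in group 3, with a fitted log2 fold of 0.13 (SE 0.16, edgeR adjusted p = 0.867). Vhl, the receptor that captures hydroxylated HIF, had 44.9 and 39.5 CPM in the libraries labelled KO and 36.7 and 41.3 CPM in WT, with a fitted log2 fold of 0.11 (SE 0.19, edgeR adjusted p = 0.922). Egln2, a nuclear prolyl hydroxylase, was higher in the library labelled KO in group 2, at 66.4 against 46.9 CPM, a ratio of 1.42 (1.25 to 1.60). In group 3 it had 78.6 CPM in the library labelled KO and 74.1 CPM in WT, where the interval of the ratio held 1. Egln1, the main oxygen sensor of the family, had 52.0 and 54.0 CPM in the libraries labelled KO against 59.9 and 57.3 CPM in WT, slightly lower in both.

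By deposited RPKM, which divides by gene length and so allows genes to be set side by side, the makeup of the prolyl hydroxylase transcripts differed along both axes. Egln3 made up 35.6% (33.6 to 37.7) and 23.2% (21.5 to 25) of the 3 hydroxylases in the libraries labelled KO of groups 2 and 3, against 27.0% (25 to 29.0) and 12.6% (11.1 to 14.2) in WT. Its share was thus higher in the libraries labelled KO in either sorted group. Egln2 held the largest share by RPKM in all 4 libraries, 50.9% and 62.3% in the libraries labelled KO and 51.0% and 69.3% in WT. Egln1 held 13.5% and 14.5% in the libraries labelled KO and 22.0% and 18.1% in WT. These orders depend on the gene length used: with the length of all annotated exons, Egln3 was the largest in both group 2 libraries, at 50.6% in the library labelled KO and 38.4% in WT, and Egln2 in both group 3 libraries, at 41.5% in the library labelled KO and 49.2% in WT.

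Among the 8 HIF target genes, Vegfa stood apart. Vegfa (ENSMUSG00000023951, chromosome 17, 46016993 to 46032369) had 9.29 and 8.72 CPM in the libraries labelled KO, against 2.76 and 3.80 CPM in WT. The 2 genotypes did not overlap, at levels that were low in all 4 libraries. The ratio was 3.36 (2.18 to 5.33) in group 2 and 2.29 (1.5 to 3.58) in group 3, with a fitted log2 fold of 1.47 (SE 0.45, edgeR adjusted p = 0.028). The call was lost with DESeq2, at an adjusted p of 0.464, with limma-voom at 0.123, and with edgeR after its filterByExpr filter at 0.0727. Leaving out any 1 library also ended it, at log2 folds of 1.24 to 1.70. Bhlhe40, a transcriptional repressor of the clock and of cytokine genes, had 8.61 and 12.8 CPM in the libraries labelled KO and 4.95 and 7.24 CPM in WT. Its libraries labelled KO were the 2 highest, and its ratios of 1.74 (1.21 to 2.52) and 1.77 (1.29 to 2.46) were alike, but the fitted log2 fold of 0.81 (SE 0.35) did not pass (edgeR adjusted p = 0.23).

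The remaining 6 targets were close to their WT levels or differed in direction between sorted groups. Bnip3l, a mitophagy receptor, had 364.8 and 396.1 CPM in the libraries labelled KO against 382.7 and 329.2 CPM in WT, ratios of 0.953 (0.910 to 0.999) and 1.20 (1.15 to 1.26). Mxi1, a repressor that competes with MYC for MAX, had 71.2 and 76.6 CPM in the libraries labelled KO against 83.0 and 66.1 CPM in WT, ratios of 0.859 (0.774 to 0.952) and 1.16 (1.03 to 1.30). Both genes were thus lower in the library labelled KO in group 2 and higher in that of group 3. Bnip3, the close relative of Bnip3l, Ankrd37, an ankyrin repeat protein, P4ha1, a collagen prolyl hydroxylase, and Kdm3a, a histone demethylase, had ratios whose intervals held 1 in both sorted groups. Kdm3a had 119.9 and 129.7 CPM in the libraries labelled KO and 117.8 and 125.7 CPM in WT, and P4ha1 38.3 and 42.3 CPM against 41.1 and 46.9 CPM. Ankrd37 had 14.6 and 9.98 CPM in the libraries labelled KO and 15.6 and 10.3 CPM in WT, and was lower in group 3 than in group 2 in both genotypes. Bnip3, whose promoter is printed above, had 19.3 and 18.3 CPM in the libraries labelled KO and 20.8 and 15.1 CPM in WT. Ankrd37 overlaps Ufsp2 on the genome, and the strand setting of the counting is not given in the sources used here, so reads of the overlap cannot be told apart.

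**Figure D2:**
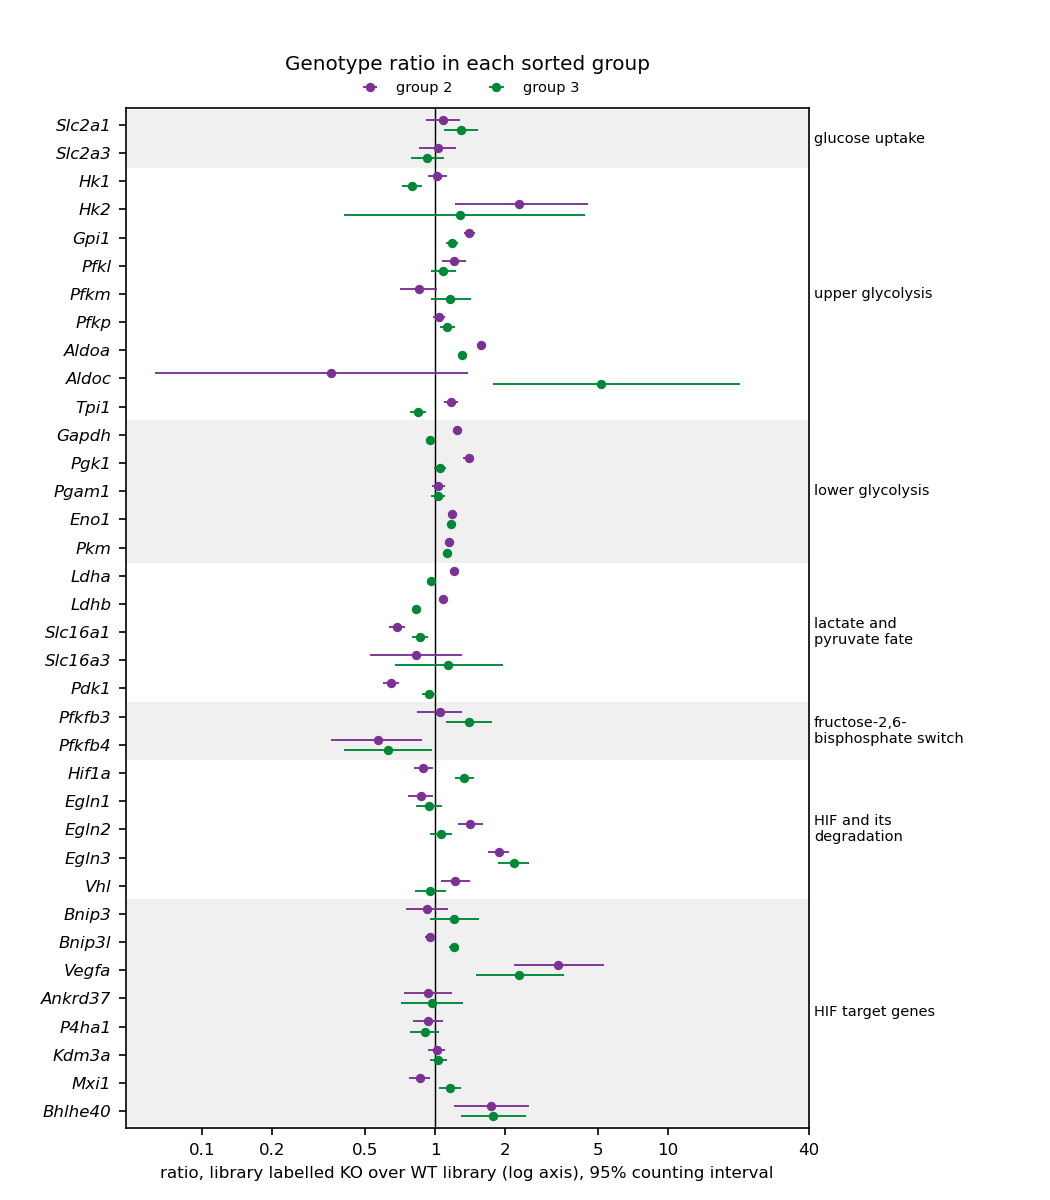
Ratio of the library labelled KO over the WT library in group 2 (purple) and group 3 (green) for each gene on a log axis, with 95% counting intervals as bars. Egln3, Vegfa and Bhlhe40 lie above 1 in both sorted groups, whereas Hif1a lies at 0.892 in group 2 and 1.33 in group 3.

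For the ratio of single libraries, a difference was called at 2-fold or more on CPM plus 0.5 with an interval excluding 1. In group 2 only Vegfa was higher by this rule among the members, 1 of 36 beside 6.45% of measured genes, and 0 were lower beside 2.44%. In group 3, Egln3, Vegfa and Aldoc were higher, 3 of 36 beside 2.17%, and 0 were lower beside 5.6%. Aldoc was measured only through that library, so the filter fixed its direction and its call adds nothing to the count. Smaller differences past counting error were common. Counting intervals narrow as counts rise, and the shares below were not matched for gene level. Gapdh, with at least 17149 counts in every library, excluded 1 at a ratio of 0.951 in group 3. In group 2 the interval lay above 1 for 16 members (44.4%, beside 27.3% of measured genes) and below 1 for 7 (19.4%, beside 25.8%). In group 3 it lay above 1 for 14 (38.9%, beside 24.5%) and below 1 for 7 (19.4%, beside 23.7%). The 16 include Hk2 and the 14 include Aldoc, whose directions the filter fixed. The median log2 fold over members was 0.06 in group 2 and 0.14 in group 3, and over all measured genes 0.00 and -0.01. The interval lay above 1 in both sorted groups for 7 members (19.4%, beside 10%), namely Egln3, Vegfa, Bhlhe40, Aldoa, Gpi1, Eno1 and Pkm, and below 1 in both for Slc16a1 and Pfkfb4 (5.56%, beside 8.54%). For 7 others (19.4%, beside 9.5%) it lay on opposite sides of 1: Gapdh, Tpi1, Ldha and Ldhb were higher in group 2 and lower in group 3, and Hif1a, Mxi1 and Bnip3l the reverse. Summed erythroid markers, given above, were likewise higher in the library labelled KO in group 2 and slightly lower in that of group 3; their part in these ratios was not tested.

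Of the 9 genes of upper glycolysis, from glucose phosphorylation to the triose phosphates, Aldoa rose, and Gpi1 and Pfkl were higher in both sorted groups without passing the test. Aldoa (ENSMUSG00000030695, chromosome 7, 126795234 to 126800751) had 594 and 649 CPM in the libraries labelled KO, against 375 and 498 CPM in WT. The lowest library labelled KO was above the highest WT library. Its ratio was 1.58 (1.52 to 1.65) in group 2 and 1.30 (1.25 to 1.35) in group 3, with a fitted log2 fold of 0.52 (SE 0.14, edgeR adjusted p = 0.00592). Leaving out any 1 of the 4 libraries ended the call, with log2 folds of 0.32 to 0.73. Gpi1, the isomerase before phosphofructokinase, had 300.2 and 304.1 CPM in the libraries labelled KO against 214 and 257 CPM in WT, a fitted log2 fold of 0.37 (SE 0.14, edgeR adjusted p = 0.154). The libraries labelled KO were again the 2 highest. Pfkl, the liver-type phosphofructokinase, had ratios of 1.21 (1.07 to 1.36) and 1.09, the second with an interval that held 1.

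The hexokinases, which trap glucose in the cell, were nearly all Hk1, at 98.0% and 99.4% of hexokinase RPKM in the libraries labelled KO of groups 2 and 3 and 99.1% and 99.6% in WT. Hk1 had 92.8 and 85.0 CPM in the libraries labelled KO and 90.6 and 107 CPM in WT, lower only in group 3 (ratio 0.796, interval 0.723 to 0.877). Hk2, the inducible hexokinase of activated T cells, had 3.51 and 0.945 CPM in the libraries labelled KO against 1.52 and 0.736 CPM in WT. The library labelled KO in group 2 was the highest, with a ratio of 2.30 (1.22 to 4.51), but with the pseudocount it stayed under 2-fold. Pfkp, the platelet-type phosphofructokinase, made up 70.9% and 67.8% of phosphofructokinase RPKM in the libraries labelled KO and 72.7% and 67.2% in WT. With the length of all annotated exons its share was 50.3% and 46.0% in the libraries labelled KO and 49.9% and 45.7% in WT. Pfkm, the muscle-type form, had 23.0 and 25.7 CPM in the libraries labelled KO and 27.1 and 22.1 CPM in WT, with intervals that held 1. Pfkp overlaps Pitrm1 and Pfkm overlaps Senp1, so the shares of this family can hold reads of those genes. Aldoc, the brain-type aldolase, had 0.340 and 2.52 CPM in the libraries labelled KO against 0.953 and 0.491 CPM in WT. It was higher in group 3, by 5.14 (1.76 to 20.4), while in group 2 the interval of 0.357 (0.0631 to 1.39) held 1; neutrophil markers were highest in the same library, and their part was not tested. Tpi1, which interconverts the triose phosphates, had ratios of 1.18 (1.10 to 1.26) in group 2 and 0.845 (0.782 to 0.913) in group 3.

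Lower glycolysis, the energy-yielding arm, held the most abundant members. By RPKM, Gapdh stood highest, at 2616 to 3886 over the 4 libraries, followed by Eno1 at 1562 to 2510. This order rests on the deposited gene lengths and was not repeated with the length of all annotated exons. None of the 5 genes passed for genotype. Gapdh, the dehydrogenase that opens this arm, had 2963 and 1999 CPM in the libraries labelled KO against 2375 and 2103 CPM in WT. Its library labelled KO was the highest of all in group 2 and the lowest of all in group 3, with ratios of 1.25 (1.23 to 1.27) and 0.951 (0.931 to 0.971). Pgk1, the kinase of the next step, had 315.3 and 231.6 CPM in the libraries labelled KO against 226.2 and 220.1 CPM in WT, a difference past counting error in group 2 only (ratio 1.39, interval 1.32 to 1.47). Eno1, the enolase, had ratios of 1.18 (1.15 to 1.20) and 1.17 (1.15 to 1.20), and a fitted log2 fold of 0.23 (SE 0.12, edgeR adjusted p = 0.40). Pkm, the pyruvate kinase, was likewise higher in both, by 1.15 (1.11 to 1.18) and 1.13 (1.10 to 1.15). Pgam1, the mutase between Pgk1 and Eno1, gave 1.03 in both sorted groups. Gapdh overlaps Iffo1 and Tpi1 overlaps Spsb2 on opposite strands, and reads there cannot be told apart. Several of these genes have processed pseudogene copies, and how shared reads were counted is not given in the sources used here.

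Of the 5 genes at the fate of pyruvate and lactate, none passed for genotype, and Slc16a1 and Pdk1 were lower in both libraries labelled KO. Slc16a1, a lactate and pyruvate transporter, had 118 and 133.8 CPM in the libraries labelled KO against 171.5 and 154.7 CPM in WT, both lower than both WT libraries. Its fitted log2 fold was -0.37 (SE 0.15, edgeR adjusted p = 0.173), with ratios of 0.688 (0.637 to 0.743) and 0.865 (0.800 to 0.936). Pdk1, the kinase that shuts pyruvate dehydrogenase, had 113.2 and 169.1 CPM in the libraries labelled KO against 174.2 and 179.8 CPM in WT. The low library was that labelled KO in group 2, with a ratio of 0.650 (0.601 to 0.702), beside 0.940 (0.876 to 1.01) in group 3; the fitted log2 fold was -0.35 (SE 0.15, edgeR adjusted p = 0.214). It was -0.062 without the library labelled KO in group 2 and -0.645 without that of group 3. Ldha, the lactate dehydrogenase subunit that HIF induces, had 1502 and 1399 CPM in the libraries labelled KO and 1243 and 1454 CPM in WT. Ldhb, its partner subunit, had 1272 and 955 CPM in the libraries labelled KO and 1180 and 1149 CPM in WT. Both were thus higher in the library labelled KO in group 2 (1.21, interval 1.18 to 1.24, and 1.08, interval 1.05 to 1.11) and lower in that of group 3 (0.962, interval 0.939 to 0.986, and 0.831, interval 0.807 to 0.855). Slc16a3, the lactate exporter of highly glycolytic cells, stayed between 3.31 and 4.76 CPM in all 4 libraries.

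The makeup of the lactate dehydrogenase transcripts differed by a few points between libraries. Ldha made up 54.6% and 59.9% of lactate dehydrogenase RPKM in the libraries labelled KO of groups 2 and 3, against 51.8% and 56.4% in WT. The share was higher in the libraries labelled KO within each sorted group and higher in group 3 within each genotype. With the length of all annotated exons Ldhb was instead the larger in all 4 libraries, with Ldha at 35.9% and 41.0% in the libraries labelled KO and 33.3% and 37.5% in WT. The order of the libraries was that found with RPKM.

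Pfkfb3 and Pfkfb4 make and remove fructose-2,6-bisphosphate, the activator of phosphofructokinase. Pfkfb3, the more kinase-active form, had 17.7 and 21.6 CPM in the libraries labelled KO against 16.9 and 15.5 CPM in WT, a ratio of 1.40 (1.12 to 1.76) in group 3. Pfkfb4 had 3.51 and 4.10 CPM in the libraries labelled KO against 6.19 and 6.50 CPM in WT, lower by ratios of 0.567 (0.357 to 0.883) and 0.630 (0.406 to 0.971). Pfkfb3 therefore held 78.0% and 78.8% of their summed RPKM in the libraries labelled KO, against 65.8% and 62.6% in WT, although neither gene passed the genotype test. Of the glucose transporters, Slc2a1, the basal transporter, had 30.4 and 36.7 CPM in the libraries labelled KO against 28.1 and 28.3 CPM in WT, past counting error in group 3 only (1.29, interval 1.09 to 1.53). Slc2a3, the high-affinity transporter, gave ratios of 1.03 and 0.928, both with intervals that held 1.

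**Figure D3:**
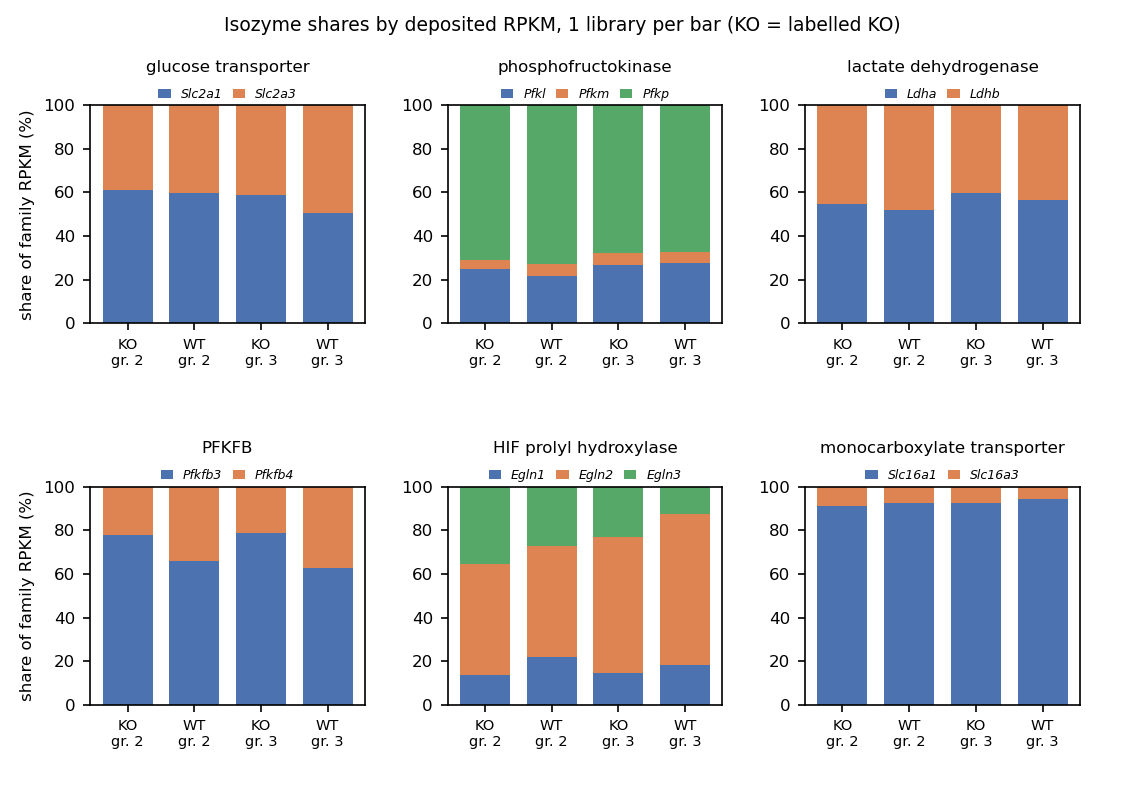
Share of each isozyme in the summed deposited RPKM of its family (percent, stacked to 100), 1 bar per library, with no error bars. The Egln3 share is 35.6% and 23.2% in the libraries labelled KO of groups 2 and 3 and 27.0% and 12.6% in WT, and Ldha lies between 51.8% and 59.9% throughout.

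The second comparison was the step of selection, group 3 over group 2. Eno1 and Pkm, late enzymes of glycolysis, rose at this step and Egln3 fell, with the same direction in both genotypes. By edgeR's quasi-likelihood test with genotype as covariate, 2 of 36 members were higher (beside 2.21% of measured genes) and 1 was lower (beside 1.14%). At an unadjusted p under 0.05, 6 were higher (16.7%, beside 5.87%) and 3 lower (8.33%, beside 4.79%). Eno1 (ENSMUSG00000063524, chromosome 4, 150236721 to 150248879) had 2385 CPM in the library labelled KO and 2032 CPM in WT in group 3, against 1685 and 1431 CPM in group 2. Both group 3 libraries were above both group 2 libraries. The ratio was 1.42 (1.39 to 1.45) in the labelled KO pair and 1.42 (1.39 to 1.45) in the WT pair, with a fitted log2 fold of 0.50 (SE 0.12, edgeR adjusted p = 0.00265).

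Pkm (ENSMUSG00000032294, chromosome 9, 59656368 to 59679375) had 1589 CPM in the library labelled KO and 1411 CPM in WT in group 3, against 1121 and 978.1 CPM in group 2. The sorted groups did not overlap, and the ratios were 1.42 (1.38 to 1.45) in the labelled KO pair and 1.44 (1.41 to 1.48) in WT. The fitted log2 fold was 0.52 (SE 0.13, edgeR adjusted p = 0.00306). Egln3 fell to 0.630 (0.568 to 0.698) of its group 2 level in the labelled KO pair and 0.543 (0.466 to 0.631) in WT, a fitted log2 fold of -0.77 (SE 0.17, edgeR adjusted p = 0.000881). DESeq2 gave Egln3 an adjusted p of 0.062 for this step. Leaving out any 1 library ended the calls of all 3 genes. The fitted log2 fold of Egln3 was then -0.21 without the library labelled KO in group 2 and -0.28 without WT group 3. It was -1.12 without WT group 2 and -1.40 without the library labelled KO in group 3. These fits carried no genotype term, so the genotype difference of Egln3 enters them.

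Other members differed at this step without passing. Gapdh was lower in group 3, by 0.675 (0.662 to 0.688) in the labelled KO pair and 0.885 (0.868 to 0.903) in WT, a fitted log2 fold of -0.37 (SE 0.12, edgeR adjusted p = 0.0557); it passed with scaling by library totals, at 0.0403. Slc2a3 was higher by 1.32 (1.11 to 1.57) in the labelled KO pair and 1.46 (1.24 to 1.73) in WT (log2 0.48, SE 0.21, edgeR adjusted p = 0.304). Egln2 was higher by 1.18 (1.06 to 1.32) and 1.58 (1.40 to 1.78) in the same pairs (log2 0.45, SE 0.17, edgeR adjusted p = 0.165). Ankrd37 was lower by 0.683 (0.518 to 0.897) and 0.659 (0.501 to 0.863). In all, both group 3 libraries were above both group 2 libraries for 6 members (16.7%, beside 16.1% of measured genes) and below them for 8 (22.2%, beside 16.2%). The 8 include Hk2, which was measured only through the library labelled KO in group 2.

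In the labelled KO pair the interval of the step ratio lay above 1 for 12 members (33.3%, beside 24.4% of measured genes) and below 1 for 9 (25%, beside 24.2%). The 12 include Aldoc and the 9 include Hk2, whose directions the filter fixed. In the WT pair it lay above 1 for 8 (22.2%, beside 23.8%) and below 1 for 9 (25%, beside 24.1%). Hif1a had a ratio of 1.39 (1.26 to 1.52) in the labelled KO pair and 0.928 (0.843 to 1.02) in WT. Pdk1 had 1.49 (1.38 to 1.62) and 1.03, and the interval of the WT ratio held 1. Tpi1 and Pgk1 were lower in the labelled KO pair, at 0.718 and 0.734, with 0.998 and 0.973 in WT. These contrasts between genotypes have no replicate and were not tested. Past 2-fold, Aldoc was higher in the labelled KO pair (1 of 36, beside 1.85% of measured genes) and Hk2 lower (1 of 36, beside 5.99%), both from few counts. Each was measured only through the library in which it was highest, so the filter fixed both directions and nothing is read from these calls. In the WT pair 0 members were past 2-fold in either direction, beside 5.22% of measured genes higher and 1.86% lower.

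**Figure D4:**
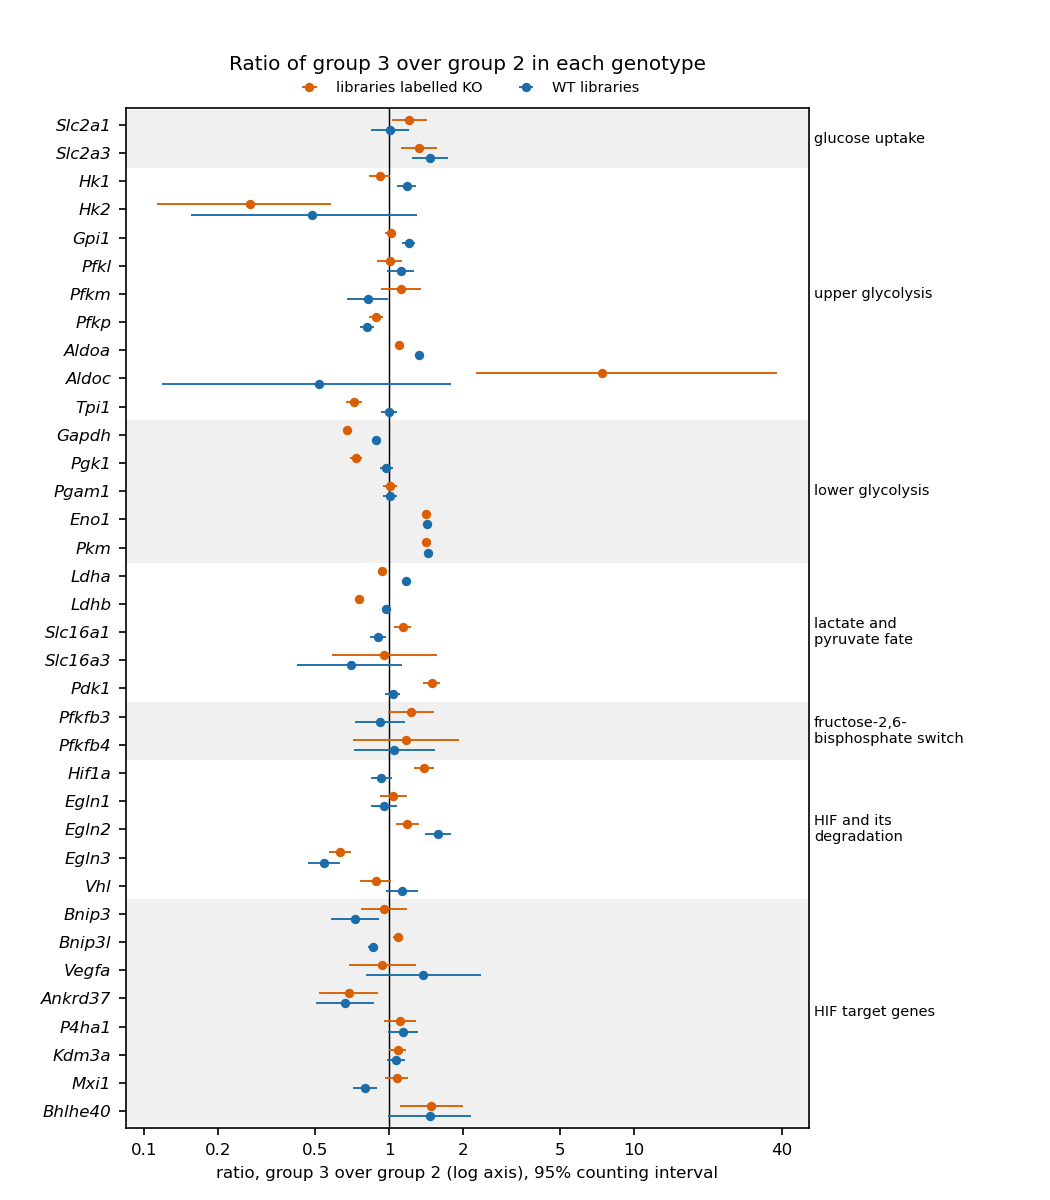
Ratio of group 3 over group 2 for each gene on a log axis, within the libraries labelled KO (orange) and within WT (blue), with 95% counting intervals as bars. Eno1 and Pkm lie between 1.42 and 1.44 in both genotypes, and Egln3 lies at 0.630 in the labelled KO pair and 0.543 in WT.

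Other genes of the same pathways were read from lists that share no gene with the members. Of 39 further glycolysis and pyruvate genes, 28 were measured, with a median log2 fold of 0.05 for genotype. Beside 2.95% of measured genes higher and 1.87% lower, 0 of the 28 passed edgeR's test for genotype in either direction. The most abundant of them were Pdhb, a subunit of pyruvate dehydrogenase, with 297.1 and 324.1 CPM in the libraries labelled KO and 267.5 and 309.3 CPM in WT, and Me2, a mitochondrial malic enzyme, with 148.7 and 181 CPM against 151.4 and 148.5 CPM. Of 15 genes of the HIF machinery and the VHL-CUL2 ligase, 14 were measured. For genotype 0 passed (median 0.09), beside the same 2.95% and 1.87% of measured genes.

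The subunits of that ligase were named for their place in it rather than by their values. Elob, Eloc and Rbx1 were lower in the library labelled KO in group 2 (beside 25.8% of measured genes). With Cul2, they were higher in that of group 3 (beside 24.5%). Intervals on opposite sides of 1 were thus found for Elob, Eloc and Rbx1, not for Cul2 or Vhl, beside 9.5% of measured genes. Vhl, given above, had ratios of 1.22 (1.06 to 1.41) and 0.955. Cul2, the scaffold, had 45.9 and 74.7 CPM in the libraries labelled KO and 48.4 and 52.6 CPM in WT, ratios of 0.948 (0.830 to 1.08) and 1.42 (1.26 to 1.60). Elob and Eloc, the adaptors to VHL, had ratios of 0.831 and 0.774 in group 2 and 1.76 and 1.14 in group 3. Rbx1, the RING subunit, had 154.5 and 170.4 CPM in the libraries labelled KO and 178.9 and 154.3 CPM in WT. At the step, Os9, a lectin of the endoplasmic reticulum, rose with a fitted log2 fold of 0.47 (edgeR adjusted p = 0.038), and Crebbp, a coactivator that HIF recruits, fell (log2 -0.50, edgeR adjusted p = 0.0481). DESeq2 called neither, at adjusted p of 0.229 for Os9 and 0.369 for Crebbp. Both calls were also lost with no filter and with filterByExpr. The log2 fold of Os9 was 0.21 without WT group 2 and 0.75 without the library labelled KO in group 2, in fits with no genotype term.

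Among 41 further HIF targets, 30 were measured, with a median log2 fold of 0.03 for genotype. By edgeR's test 2 rose (beside 2.95% of measured genes) and 0 fell (beside 1.87%). Nfil3, a transcription factor of innate lymphoid and T cells, had 34.4 and 26.9 CPM in the libraries labelled KO against 15.0 and 11.7 CPM in WT, a fitted log2 fold of 1.20 (SE 0.23, edgeR adjusted p = 2.67e-05). Cited2, which competes with HIF for its coactivators, had 216 and 231 CPM in the libraries labelled KO against 122 and 137 CPM in WT, a log2 fold of 0.79 (SE 0.15, edgeR adjusted p = 1.77e-05). For both genes the libraries labelled KO lay above both WT libraries. Leaving out 1 library ended the Nfil3 call without the library labelled KO in group 2 (edgeR adjusted p = 0.232) or WT group 3 (0.0846), and the Cited2 call without any library but WT group 3 (0.0928 to 0.263). At the step, Rora, a nuclear receptor, rose with a log2 fold of 1.38 (SE 0.29, edgeR adjusted p = 0.000218), a call that DESeq2 did not make (adjusted p 0.128) and that leaving out any 1 library ended.

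Genes of the G2 and M phases, read because dividing cells use glycolysis heavily, differed with the label in the same libraries. Of 15, 14 fell (beside 1.87% of measured genes) and 0 rose (beside 2.95%) in the libraries labelled KO by edgeR's test. The median log2 fold of the 15 was -0.60. Ttk, a spindle checkpoint kinase, had 16.1 and 10.4 CPM in the libraries labelled KO against 33.4 and 26.0 CPM in WT. Prc1, which bundles the central spindle, had 71.8 and 65.2 CPM against 127.9 and 115.8 CPM, and Cenpf, a kinetochore protein, had 79.5 and 76.0 CPM against 145.7 and 126.1 CPM. The part of this difference in the levels of the glycolytic genes was not tested.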

How the data were processed

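RNA sequencing libraries of sorted thymocytes, 1 for each of 4 combinations of genotype and sorted group, were analysed. The authors deposited counts per Ensembl gene and a table of RPKM for each library; alignment used TopHat2 2.0.12 and mm10, per the submitters' processing notes, and the counting program and its strand setting are not given in the sources used here. All 88211 deposited RPKM values with counts implied, with those counts, a whole gene length within 0.01 bp. Over 27366 genes that length had a median ratio of 1.0 to the mean GENCODE M21 transcript length and 0.67 to all annotated exons. Of 35275 gene IDs, 34490 were matched to symbols in GENCODE M21; the 785 unmatched held 0.119% to 0.128% of a library's counts and stayed in the totals.

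Genes with 2 CPM in at least 1 library were kept (12490). Counts were tested with edgeR 4.0.16 in R 4.3.3 (TMM factors, quasi-likelihood F test, additive model of sorted group and genotype with 1 residual degree of freedom); p-values were adjusted by Benjamini-Hochberg over all 12490 genes, with a threshold of 0.05. The common dispersion was 0.0288, and each gene's spread was shrunk fully to the trend. Nothing in the labels says that libraries came from separate mice, and no combination had a replicate. The p-values therefore use a spread pooled over genes, taken from departures of these libraries from the additive model. Ratios of 2 libraries have exact conditional binomial 95% intervals and no test; the 2-fold rule used CPM plus 0.5. Alternatives were DESeq2 1.42.0, limma-voom 3.58.1, other size factors, filters, pseudocounts and fold limits, the other factor left out, and each library left out.

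Isozyme shares are each gene's RPKM over its family's sum. Shares were also taken from counts without length and from the length of all annotated exons. Of these alternative shares, 108 fell outside the counting interval of the RPKM share and 52 fell within it. Members of the set and the other lists were chosen with earlier results of these data known. All 36 members were named or counted. From the other lists, up to 6 genes called for genotype and 4 for sorted group, or the 2 most abundant, were eligible. Cul2, Elob and Eloc were named outside that rule, as subunits of the VHL-CUL2 ligase.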

Additional observations from a re-analysis of the deposited data

Results flagged for a closer look

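For 7 of the 36 genes (19.4%, beside 9.5% of measured genes) the interval of the ratio of the library labelled KO over WT lay on opposite sides of 1 in the 2 sorted groups. Each ratio compares a pair of libraries, so the difference between sorted groups was not tested. Counting intervals narrow as counts rise, and the 9.5% was not matched for gene level. Gapdh had 1.25 in group 2 and 0.951 in group 3, Tpi1 1.18 and 0.845, Ldhb 1.08 and 0.831, and Ldha 1.21 and 0.962. The opposite order was found in Hif1a, with 0.892 in group 2 and 1.33 in group 3, in Mxi1, with 0.859 and 1.16, and in Bnip3l, with 0.953 and 1.20. The number of genes with at least 1 count also changed places, being higher than WT in the library labelled KO in group 2 and lower in that of group 3; its part was not tested.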

How the results depend on the processing

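For genotype, 368 genes were higher and 234 lower. These counts were 244 and 125 with no filter, 195 and 104 with filterByExpr, 125 and 54 with DESeq2, and 17 and 6 with the other factor left out; leaving out each library gave 43 to 152 and 12 to 75. The 3 members higher became 0 with the other factor left out and 0 to 1 with each library left out. For the step, 276 genes were higher and 143 lower. With filterByExpr they were 169 and 57, with DESeq2 100 and 39, with the other factor left out 9 and 5, and with each library left out 4 to 60 and 5 to 12; with no filter 83 were lower. The 2 members higher became 0 with the other factor left out and 0 with each library left out. The 1 member lower became 2 with library totals, 0 with DESeq2, 0 with the other factor left out and 0 with each library left out. Fits with a library left out, like those with the other factor left out, carried no second factor. The cause of these differences was not tested.

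At 1.5-fold in place of 2-fold, members past the limit for genotype numbered 5 higher (beside 11.8% of measured genes) and 2 lower (8.05%) in group 2. In group 3 they numbered 4 higher (6.39%) and 1 lower (10.6%). At the step they numbered 1 higher (5.96%) and 2 lower (10.7%) in the labelled KO pair, and 1 higher (10.1%) and 1 lower (6.04%) in the WT pair. These include Hk2 in group 2, Aldoc in group 3 and both at the labelled KO step, where the filter fixed their directions. With a pseudocount of 2 CPM, members past 2-fold were 1 higher for genotype in group 3 and 0 either way at the step in the labelled KO pair. With a 10 CPM filter they were 0 higher in group 2, 1 higher in group 3 and 0 either way at that step. Leaving out each library, the fitted genotype log2 fold ran from -0.039 to 0.51 for Eno1 and from -0.11 to 0.36 for Hif1a, both below 0 only without the library labelled KO in group 3. Fits with a library left out carried no second factor and assume that the lone library of an arm varies like the others. Leaving out each library, the fitted step fold of Eno1 ran from 0.38 to 0.63 and that of Pkm from 0.42 to 0.62 (log2).

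No paired analysis was possible because each combination of genotype and sorted group held 1 library with no replicate number. With so few libraries, a difference present in just 1 of the pairs can reach the threshold. Vegfa, Hk2, Aldoc, Pfkfb4 and Slc16a3 rest on few counts, and their intervals are wide.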
